A study of Homo sapiens with 6 samples.

Results

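The transcripts of 10 erythroid transcription factors and cofactors were followed in K562 cells: GATA1, GATA2, TAL1, KLF1, NFE2, GFI1B, LMO2, ZFPM1, LDB1 and IKZF1. They were taken by Ensembl gene ID from an RNA-Seq table of 58288 genes, and all 10 passed the filter on low values, as did 12634 genes in all. K562 is an erythroleukemic cell line derived from a patient with chronic myelogenous leukemia. Endogenous MYB, a transcription factor of blood progenitors, was knocked down with the siRNA si2992 in every library compared here, and total RNA was extracted 24 hours later. Each rescue was a line held in G418 at 200 µg/ml that stably expressed a tagged MYB mutant, which the siRNA does not target. The first line expressed 3xFLAG-2KR-Myb-HA (2KR-MYB), which cannot be conjugated to the small modifier protein SUMO. The other expressed 3xFLAG-ANAA-Myb-HA (ANAA-MYB), which cannot bind SUMO through its SUMO interaction motif. There were 3 libraries for each rescue, poly(A)-selected and stranded, read as 150 bp pairs. By the study's methods each line was 1 single cell clone, so the p-values below measure the spread between libraries of a clone, and the MYB mutation and the clone cannot be told apart. The control, knockdown and other rescue libraries were not analysed here.

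These factors act together in red cell progenitors. GATA1 and GATA2 bind GATA sites, and GATA1 replaces GATA2 as erythroid cells mature. TAL1, a basic helix-loop-helix protein, binds E-boxes with an E protein partner and is held to GATA1 by the bridging proteins LMO2 and LDB1. KLF1 binds CACCC boxes of globin and red cell membrane genes, and NFE2 pairs with small Maf proteins at globin control regions. ZFPM1 (FOG1) is a cofactor that binds GATA1 and recruits corepressors, GFI1B is a repressor that works through the histone demethylase KDM1A, and IKZF1 (Ikaros) is a zinc finger factor that takes part in globin switching and in lymphoid development. The comparison asks whether their transcripts differed between cells rescued with a MYB that SUMO cannot modify and cells rescued with a MYB that cannot bind it. Endogenous MYB was knocked down and not removed.

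The promoter windows of 4 factors whose transcripts differed between the rescues (KLF1, GFI1B, GATA1 and LDB1), and of TAL1, whose difference had the opposite sign, are printed so that the letters near the start sites can be read beside the values that follow. They run from 250 bases before to 50 bases after a RefSeq start site on GRCh38.p14, 5′ to 3′ on the strand of the gene. Capitals mark a GATA match (AGATAA or TGATAA) or a MYB match (AACNG), read on either strand. KLF1 lies at chr19:12887152-12887451 on the minus strand, GFI1B (the downstream of its start sites) at chr9:132978444-132978743 on the plus strand, GATA1 at chrX:48786340-48786639 on the plus strand, LDB1 at chr10:102114953-102115252 on the minus strand and TAL1 (the upstream of its start sites) at chr1:47232286-47232585 on the minus strand.
KLF1: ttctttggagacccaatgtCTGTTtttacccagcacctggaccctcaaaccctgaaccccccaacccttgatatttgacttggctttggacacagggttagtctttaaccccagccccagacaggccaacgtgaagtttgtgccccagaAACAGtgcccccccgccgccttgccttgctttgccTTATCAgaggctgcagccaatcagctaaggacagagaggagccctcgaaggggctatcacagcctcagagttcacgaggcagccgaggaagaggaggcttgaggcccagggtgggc
GFI1B: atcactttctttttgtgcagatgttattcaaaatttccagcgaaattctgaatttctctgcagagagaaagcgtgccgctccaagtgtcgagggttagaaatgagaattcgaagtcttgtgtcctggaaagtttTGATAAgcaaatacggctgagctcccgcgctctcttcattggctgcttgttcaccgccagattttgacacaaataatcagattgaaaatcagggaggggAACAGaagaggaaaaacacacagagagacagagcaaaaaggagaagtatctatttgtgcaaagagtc
GATA1: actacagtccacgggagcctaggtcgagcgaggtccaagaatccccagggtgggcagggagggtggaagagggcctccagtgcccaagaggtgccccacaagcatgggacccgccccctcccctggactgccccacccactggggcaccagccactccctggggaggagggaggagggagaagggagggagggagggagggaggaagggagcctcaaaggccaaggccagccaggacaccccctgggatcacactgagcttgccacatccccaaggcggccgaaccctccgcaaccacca
LDB1: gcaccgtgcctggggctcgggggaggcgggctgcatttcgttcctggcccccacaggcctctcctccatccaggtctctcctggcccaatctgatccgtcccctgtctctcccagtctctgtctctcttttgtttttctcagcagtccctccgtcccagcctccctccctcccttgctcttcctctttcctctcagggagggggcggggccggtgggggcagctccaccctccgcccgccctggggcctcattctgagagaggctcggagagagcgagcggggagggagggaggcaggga
TAL1: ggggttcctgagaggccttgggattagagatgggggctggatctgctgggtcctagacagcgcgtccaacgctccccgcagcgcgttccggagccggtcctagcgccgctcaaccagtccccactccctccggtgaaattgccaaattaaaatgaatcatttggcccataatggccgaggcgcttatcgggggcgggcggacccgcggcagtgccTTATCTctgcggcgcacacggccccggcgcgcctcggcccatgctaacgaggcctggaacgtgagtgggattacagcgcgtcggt

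The KLF1 window held a GATA match, as TTATCA, whose first letter lay 66 bases before the start site, and MYB matches that began 231 and 101 bases before it. The GFI1B window held TGATAA, from 116 bases before its start site, and AACAG, from 17 bases before it. The TAL1 window held TTATCT from 35 bases before the start site and no MYB match. The GATA1 and LDB1 windows held neither motif but 4 CACCC box matches each. The windows at the other start sites of TAL1 and GFI1B, not printed, held no GATA match but 3 and 2 MYB matches. Over the 13 windows found for 8 of the factors, 4 held the GATA motif (16.3% of all 35116 promoter windows did), 7 held the MYB motif (77.2% of all windows), 7 held an E-box, CANNTG (68.7%), 8 held a CACCC box, CCNCNCCC (56.2%), and 1 held the NFE2 motif, TGANTCA (7.71%). Each motif was searched on both strands, and neighbouring CACCC box matches can overlap. These are matches of letters in a window and not sites shown to be bound. No window was found for NFE2 or LMO2.

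Of the 10 factors, 5 differed between the rescues, all with lower transcript levels under 2KR-MYB than under ANAA-MYB: KLF1, GATA1, NFE2, GFI1B and LDB1. None was higher, and 5 (GATA2, TAL1, IKZF1, LMO2 and ZFPM1) did not pass. Levels are FPKM (sequenced fragments scaled to transcript length and to the fragments mapped in a library), and differences are log2 fold changes of FPKM + 1, 2KR-MYB minus ANAA-MYB, tested with limma over all 12634 genes and called at a Benjamini-Hochberg adjusted p under 0.01. By the same test 1642 genes (13.0%) were called, 938 (7.42%) lower and 704 (5.57%) higher under 2KR-MYB. The median difference of the 10 factors was -0.24, against -0.015 over all tested genes, whose quartiles were -0.15 and 0.13. The libraries of the rescues did not overlap for 8 factors, 7 of them lower under 2KR-MYB, where the shares over all tested genes were 44.9% in either direction and 24.8% lower. Calls on 3 factors, KLF1, GATA1 and NFE2, held in all 16 settings of the test. GFI1B or LDB1 was lost in others: the count of factors called fell to 3 with no filter on low values and with 2KR-MYB replicate 1, 2KR-MYB replicate 2 or ANAA-MYB replicate 1 left out.

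**Figure D1:**
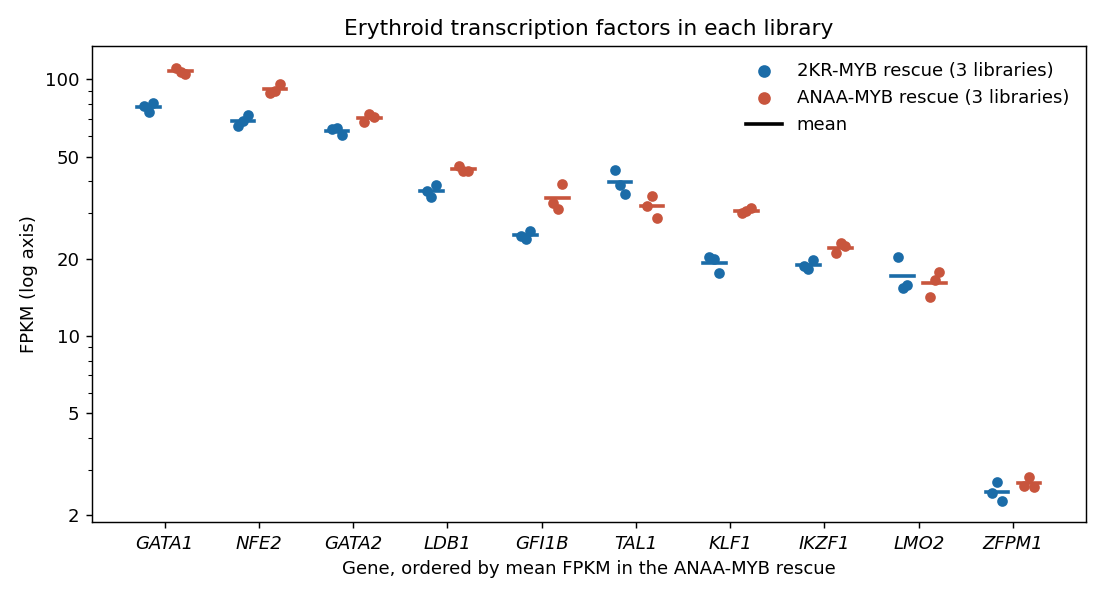
FPKM of the 10 factors (log axis) in each of the 3 libraries of the 2KR-MYB rescue and of the 3 of the ANAA-MYB rescue, with genes ordered by their mean level under ANAA-MYB. GATA1 was the highest in both rescues and ZFPM1 the lowest, and the libraries did not overlap for 8 of the 10 genes.

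KLF1 (ENSG00000105610, chr19:12884422-12887201), the activator of adult globin and red cell membrane genes, differed most. Its levels with 2KR-MYB were 20.2, 19.8 and 17.6 FPKM, and with ANAA-MYB they were 30.1, 30.6 and 31.5 FPKM. Every 2KR-MYB library lay below every ANAA-MYB library, and the means were 19.2 ± 1.44 and 30.7 ± 0.698 FPKM (SD, n = 3 each). The level was 1.60-fold higher under ANAA-MYB, with a log2 fold change of -0.65 (SE 0.062, 95% interval -0.80 to -0.51, limma adjusted p = 0.000325). Of all tested genes, 2.53% had a lower log2 fold change than KLF1.

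GATA1 (ENSG00000102145, chrX:48786590-48794311), the central activator of the red cell program, was the most abundant of the 10. Its levels were 79.0, 74.9 and 80.6 FPKM under 2KR-MYB and 111, 107 and 105 FPKM under ANAA-MYB. The groups stood well apart, at 78.2 ± 2.96 against 107 ± 3.44 FPKM (SD, n = 3 each). The log2 fold change was -0.45 (SE 0.048, 95% interval -0.57 to -0.34, limma adjusted p = 0.000495), and over the settings its adjusted p lay between 0.000258 and 0.00384.

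GATA2 (ENSG00000179348, chr3:128479422-128493201), the GATA factor of stem and early progenitor cells, gave 64.0, 64.6 and 61.0 FPKM under 2KR-MYB and 68.0, 73.2 and 71.5 FPKM under ANAA-MYB. All 3 of the former lay below all 3 of the latter, with means of 63.2 ± 1.93 and 70.9 ± 2.68 FPKM. The log2 fold change of -0.16 (95% interval -0.27 to -0.052) did not pass (limma adjusted p = 0.0392), and it passed in none of the 16 settings. GATA2-AS1, the antisense RNA beside GATA2, was higher under 2KR-MYB (8.04 against 5.60 FPKM, log2 fold change 0.45, limma adjusted p = 0.00296), and was named after its value was seen. The library kit keeps the strand, but whether the counting used it is not given in the sources used here, so reads of the gene and of its antisense partner may not be fully separated.

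Among the proteins of the GATA1 complex, TAL1 (ENSG00000162367, chr1:47216290-47232335) gave 44.5, 38.8 and 35.8 FPKM under 2KR-MYB and 32.0, 34.9 and 28.9 FPKM under ANAA-MYB. It was the only factor of the 10 whose 2KR-MYB libraries all lay above the ANAA-MYB libraries. The log2 fold change was 0.30 (SE 0.093, 95% interval 0.088 to 0.52), which did not pass (limma adjusted p = 0.0449). The lowest 2KR-MYB library and the highest ANAA-MYB library were less than 1 FPKM apart.

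LDB1 (ENSG00000198728, chr10:102102088-102121442), the adaptor that dimerizes and brings distant control elements together, gave 36.6, 34.8 and 38.9 FPKM under 2KR-MYB and 45.8, 43.8 and 44.0 FPKM under ANAA-MYB. The rescues did not overlap, with a log2 fold change of -0.27 (SE 0.053, 95% interval -0.39 to -0.15, limma adjusted p = 0.00796). This was the least stable of the 5 calls and held in 6 of 16 settings. Its adjusted p rose to 0.0520 with the libraries scaled to a common sum, to 0.0292 and 0.0310 without 2KR-MYB replicate 1 or 2, and to 0.0296, 0.0237 and 0.0197 without ANAA-MYB replicate 1, 2 or 3.

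LMO2 (ENSG00000135363, chr11:33858576-33892076), the LIM-only bridge between TAL1 and LDB1, did not separate the rescues. It gave 20.3, 15.4 and 15.8 FPKM under 2KR-MYB and 14.1, 16.4 and 17.7 FPKM under ANAA-MYB, with 2KR-MYB replicate 1 above the other 5. The log2 fold change of 0.083 had a 95% interval from -0.18 to 0.35 (limma adjusted p = 0.632), and its sign turned without that library (-0.038) or without ANAA-MYB replicate 1 (-0.0012).

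ZFPM1 (ENSG00000179588, chr16:88451769-88537031) was by far the least abundant, at 2.43, 2.68 and 2.27 FPKM under 2KR-MYB and 2.58, 2.81 and 2.57 FPKM under ANAA-MYB. The libraries overlapped, and the log2 fold change of -0.078 (95% interval -0.28 to 0.12) did not pass (limma adjusted p = 0.542). At this level the added 1 FPKM makes the fold smaller than the ratio of the means.

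GFI1B (ENSG00000165702, chr9:132945531-132993434), a repressor needed for erythroid and megakaryocyte maturation, gave 24.6, 23.9 and 25.5 FPKM under 2KR-MYB and 33.1, 31.2 and 39.0 FPKM under ANAA-MYB. The 2KR-MYB libraries lay close together and below the more spread ANAA-MYB libraries (24.7 ± 0.842 against 34.4 ± 4.06 FPKM). The log2 fold change was -0.46 (SE 0.080, 95% interval -0.64 to -0.27, limma adjusted p = 0.00475), and the call held in 11 of 16 settings. The adjusted p was 0.0182, 0.0207 and 0.0108 without 2KR-MYB replicate 1, 2 or 3, 0.0126 without ANAA-MYB replicate 1 and 0.0266 with no filter on low values.

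NFE2 (ENSG00000123405, chr12:54292111-54301015), the large subunit of the NF-E2 dimer, gave 65.8, 68.8 and 72.8 FPKM under 2KR-MYB and 88.9, 90.4 and 95.8 FPKM under ANAA-MYB. The gap between the groups was wider than the range within either of them. The means of 69.1 ± 3.49 and 91.7 ± 3.60 FPKM gave a log2 fold change of -0.40 (SE 0.053, 95% interval -0.53 to -0.28, limma adjusted p = 0.00136).

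IKZF1 (ENSG00000185811, chr7:50303455-50405101) gave 18.7, 18.3 and 19.7 FPKM under 2KR-MYB and 20.9, 22.9 and 22.4 FPKM under ANAA-MYB. The groups did not overlap, but the log2 fold change of -0.21 (95% interval -0.34 to -0.084) did not pass (limma adjusted p = 0.0261) in any of the 16 settings. MYB itself (ENSG00000118513), whose reads come from the endogenous gene and the transgene and cannot be told apart here, gave 69.0, 61.2 and 67.5 FPKM under 2KR-MYB and 53.6, 55.3 and 62.0 FPKM under ANAA-MYB. Its libraries overlapped, and its log2 fold change of 0.21 did not pass (limma adjusted p = 0.0616).

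**Figure D2:**
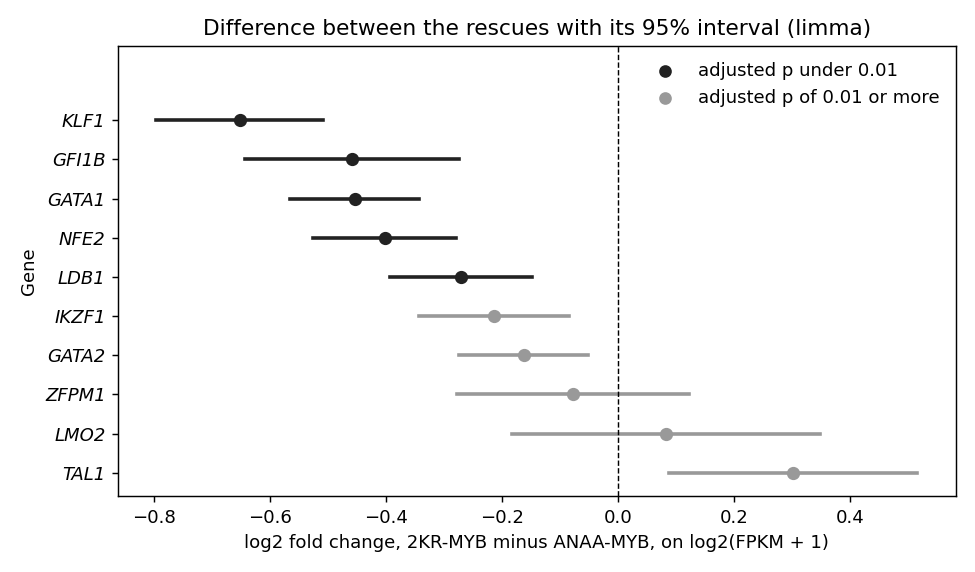
Log2 fold change of each factor (x axis, 2KR-MYB minus ANAA-MYB, on log2 of FPKM + 1) with its 95% interval from limma, marked by whether the adjusted p was under 0.01. The intervals of 8 factors lie on 1 side of 0, from KLF1 at -0.65 to TAL1 at 0.30, while those of LMO2 and ZFPM1 span it.

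The order of levels was partly the same in both rescues. GATA1, NFE2 and GATA2 took the first 3 places in both, with no overlap between neighbours in the order, and ZFPM1 was last. Under 2KR-MYB the middle ran TAL1, LDB1, GFI1B, KLF1, IKZF1 and LMO2, where TAL1 and LDB1 overlapped, as did KLF1 with IKZF1 and IKZF1 with LMO2. Under ANAA-MYB it ran LDB1, GFI1B, TAL1, KLF1, IKZF1 and LMO2, and GFI1B overlapped with TAL1 and TAL1 with KLF1. Summed over the 10 factors, the levels were 376, 362 and 370 FPKM under 2KR-MYB and 447, 453 and 458 FPKM under ANAA-MYB. GATA1 made up 20.7% to 21.8% of that sum in the former and 22.8% to 24.9% in the latter, without overlap. The coefficient of variation within a rescue ran from 2.27% to 15.9% over the factors.

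Ratios between factors do not depend on how a library was scaled, so 6 were compared within each library. The ratio of GATA1 to GATA2, which rises in normal erythroid maturation, was 1.23, 1.16 and 1.32 under 2KR-MYB and 1.64, 1.46 and 1.46 under ANAA-MYB. TAL1 to GATA1 moved most, at 0.563, 0.518 and 0.444 against 0.288, 0.328 and 0.276, a log2 difference of 0.77. TAL1 was thus higher relative to GATA1 in every 2KR-MYB library than in any ANAA-MYB library. KLF1 to GATA1 averaged 0.246 against 0.286 (log2 difference -0.22), LMO2 to LDB1 0.468 against 0.362 (0.37) and ZFPM1 to GATA1 0.0316 against 0.0247 (0.35). Single libraries weighed on some of these: the log2 difference of KLF1 to GATA1 was -0.13 without 2KR-MYB replicate 3, and that of LMO2 to LDB1 was 0.24 without 2KR-MYB replicate 1. In each of these 5 ratios the rescues did not overlap. Each gave the smallest p that an exact two-sided permutation test of 3 against 3 can give (0.1, or 0.12 adjusted over the 6 ratios). The design thus cannot reach 0.05. For KLF1 to GATA1 the gap was narrow, from 0.265 in the highest 2KR-MYB library to 0.271 in the lowest ANAA-MYB library. For LMO2 to LDB1 it ran from 0.402 in the highest ANAA-MYB library to 0.406 in the lowest 2KR-MYB library. All of these ratios but LMO2 to LDB1 hold GATA1, so they are not independent of each other or of the GATA1 call. GFI1B to GATA1 overlapped, at 0.316 ± 0.00376 against 0.321 ± 0.0450 (log2 difference -0.015, exact permutation p = 1.0), and ANAA-MYB replicate 3 alone lay above the other 5; without it the log2 difference was 0.097.

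The 10 genes lie on 10 different chromosomes, so the surroundings of each were read from the same fit, over the 10 tested genes on either side by RefSeq start (20 in all, no test). Of all tested genes, 53.2% had a log2 fold change below 0, 7.42% were called lower under 2KR-MYB and 5.57% were called higher. Around GATA1 on chromosome X, 18 of the 20 neighbours had a log2 fold change below 0, their median was -0.18, and 6 were lower under 2KR-MYB, among them WAS (-0.65), an actin regulator gene near it, and PIM2 (-0.44), a kinase gene. WAS and SSX3 (-2.43) had a lower value than GATA1 did. Around KLF1 on chromosome 19, 17 of 20 were below 0 with a median of -0.16, and 1, DNASE2 (-0.41), was lower by the test. No neighbour had a lower value than KLF1, but LYL1, the 7th gene from it, lay close to it at -0.64 without being called. The tested neighbours of these factors thus leaned the same way as the factors, and the part of the region in the result was not tested.

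Around the other factors the medians were nearer 0. They were 0.035 for GATA2, -0.020 for TAL1, -0.051 for NFE2, -0.064 for GFI1B, -0.038 for LMO2, -0.046 for ZFPM1, -0.012 for LDB1 and 0.055 for IKZF1. LDB1 and IKZF1 had no neighbour with a lower value than their own, and the 3 neighbours of IKZF1 that were called, UPP1 and HUS1 among them, were higher under 2KR-MYB. NFE2 had 3 neighbours called lower and 1 higher, and NCKAP1L (-0.42) and SMUG1 (-0.34) were near its own value. The neighbours named here were chosen after their values were seen.

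The genes around these factors in the pathway were read by gene lists. Beside the counts of each list stand the shares over all tested genes. There 13.0% were called, 7.42% lower and 5.57% higher under 2KR-MYB. Of 12 partners of the TAL1 complex, all tested, 1 was called: LMO4, a LIM-only relative of LMO2, higher at 13.8 against 10.1 FPKM (log2 fold change 0.42, limma adjusted p = 0.00186). The other 11 did not pass, and the list median was -0.045. LYL1, the closest relative of TAL1 and a neighbour of KLF1 on chromosome 19 (17 of the 20 genes around LYL1 were below 0, median -0.19), gave 43.1, 43.5 and 30.1 FPKM under 2KR-MYB against 54.9, 65.9 and 61.2 under ANAA-MYB, so its libraries lay on opposite sides to those of TAL1, at a log2 fold change of -0.64 that missed the threshold (limma adjusted p = 0.0110). TCF3, the E protein that pairs with TAL1, gave 60.3 against 72.0 FPKM (adjusted p = 0.0146), CBFA2T3 (ETO2) 43.3 against 57.5 (0.0272) and SSBP3, which stabilizes LDB1, 74.0 against 75.1. With the filter at a mean of 5 FPKM, 3 of the list passed, 2 of them lower, 2 passed with upper quartile scaling and 2 with 2KR-MYB replicate 3 or ANAA-MYB replicate 3 left out.

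Of 21 corepressors that ZFPM1, GFI1B and IKZF1 recruit, none passed by limma at an adjusted p under 0.01 or 0.05. Of these, 5 had an unadjusted p under 0.05, and the median was -0.051. The most abundant were RBBP4 (199 against 214 FPKM), HDAC1 (182 against 184), CHD4 (132 against 135) and HDAC2 (108 against 116), chromatin-binding, deacetylase and remodelling subunits of NuRD.

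Of 8 small Maf and cap'n'collar factors, the relatives and partners of NFE2, 2 were higher under 2KR-MYB and none was lower. These were BACH2, at 7.97 against 4.35 FPKM (log2 fold change 0.74, limma adjusted p = 0.000446), and BACH1, at 24.1, 25.3 and 26.0 against 19.5, 20.3 and 20.2 FPKM (0.32, adjusted p = 0.00309), heme-sensing or related repressors that compete with NFE2 for small Maf partners and sites. Their direction was thus opposite to that of NFE2. MAFG, the most abundant small Maf here, was at 35.5 against 35.7 FPKM, and 1 of the list passed without 2KR-MYB replicate 2 or 3 or ANAA-MYB replicate 1 or 2.

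Of 28 relatives from the GATA, KLF, GFI, Ikaros, LMO, LDB, FOG and TAL families, 13 were tested and 15 were under the filter. KLF10 and KLF6 were higher under 2KR-MYB, at 25.1 against 13.7 FPKM (log2 fold change 0.83, limma adjusted p = 9.5e-05) and 36.9 against 18.8 FPKM (0.93, adjusted p = 0.000485), while KLF1 was lower. KLF16 was lower (-0.36, adjusted p = 0.00794), a call lost with no filter, with any other scaling, with any 1 library left out and with the replicate number as a block. The list median was 0.10. KLF3, a repressor that KLF1 induces, was at 19.8 against 19.7 FPKM, IKZF4 at 14.6 against 15.5, IKZF5 at 9.01 against 8.35 and ZFPM2, the FOG relative of ZFPM1, at 6.85 against 7.36.

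Of 20 other regulators of erythroid cells, 16 were tested, 2 were lower and 2 higher under 2KR-MYB. RUNX1, which binds with TAL1 and GATA factors in progenitors, was lower at 14.7 against 19.6 FPKM (-0.39, limma adjusted p = 0.00419), as was HHEX, a homeobox factor of progenitors, at 48.5 against 56.8 FPKM (-0.23, adjusted p = 0.00920). ID2, which blocks E proteins, was higher at 9.62 against 5.25 FPKM (0.77, adjusted p = 0.000766), as was FOXO3, a factor of late erythroid maturation, at 11.0 against 8.16 FPKM (0.39, adjusted p = 0.00434). This count moved with the settings, with 1 passing with no filter and 2, both higher, with a common sum. CBFB, the partner of RUNX1, was at 48.3 against 37.8 FPKM (limma adjusted p = 0.0129). Leaving out 2KR-MYB replicate 1, 2 or 3 left 2, 1 and 2, and leaving out ANAA-MYB replicate 1 or 2 left 1 in either case.

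The genes these factors are known to control did not follow them in 1 direction. Of 48 erythroid target genes, 40 were tested, 6 were lower, 4 were higher and 30 did not pass, with a list median of 0.049. Over all tested genes, 7.42% were called lower and 5.57% higher. Among those lower under 2KR-MYB were SLC25A37 (mitoferrin), the mitochondrial iron importer, at 45.9 against 74.4 FPKM (-0.69, limma adjusted p = 4.67e-05), ANK1, the membrane skeleton ankyrin, at 31.2 against 46.4 FPKM (-0.56, adjusted p = 0.000317), and TFRC, the transferrin receptor, at 217 against 266 FPKM (-0.29, adjusted p = 0.00784). Among those higher were KEL, a blood group antigen, at 47.6 against 23.7 FPKM (0.98, adjusted p = 0.000108), and AHSP, the chaperone of alpha globin, at 2.81 against 0.756 FPKM (1.13, adjusted p = 0.00176). AHSP and TFRC were named after their values were seen. Around SLC25A37 on chromosome 8, 16 of the 20 tested neighbours were below 0 with a median of -0.35, further from 0 than around GATA1 or KLF1. Around ANK1, also on chromosome 8, 13 of 20 were below 0 with a median of -0.14, where 53.2% of all tested genes were below 0. Around KEL 5 of 20 were below 0 with a median of 0.065. The part of these regions in the values was not tested. The counts turned to 4 lower and 9 higher with the libraries scaled to a common sum, and to 5 and 9 with upper quartile scaling, so the split of this list depends on the scaling. The fetal globins HBG2 (835 against 994 FPKM) and HBG1 (364 against 451), the heme synthesis enzyme UROD (312 against 339) and RHAG, of the Rh complex (313 against 276), did not pass, and HBG reads may be split between their near-identical copies.

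Marker lists were read beside these values. Of 10 erythroid markers 9 were at a mean of 1 FPKM or more, and their sum ran from 1511 to 1630 FPKM under 2KR-MYB and from 1719 to 2109 FPKM under ANAA-MYB. SLC4A1 (band 3), a marker of late erythroid cells, stayed under the filter, at 0.834 and 0.325 FPKM. Of 11 megakaryocyte markers 2 reached 1 FPKM (ITGA2B and ITGB3), GP1BB, GP9 and PF4 were listed at 0 in all libraries, and the sum ran from 5.82 to 7.24 FPKM against 8.36 to 9.77. Of 11 granulocyte and monocyte markers 2 reached it, ELANE was listed at 0, and the sum ran from 27.8 to 30.0 FPKM against 43.4 to 46.5. Both of those 2 were lower under 2KR-MYB, LYZ (10.6 against 21.9 FPKM, log2 fold change -0.99, limma adjusted p = 0.000659) and SPI1 (PU.1, which opposes GATA1; 16.2 against 22.0 FPKM, -0.42, adjusted p = 0.00257). Of 9 lymphocyte markers 4 reached it, MS4A1 was listed at 0, and the sum ran from 32.7 to 38.9 FPKM against 47.0 to 67.0. CD3D was lower (27.8 against 52.9 FPKM, -0.89, adjusted p = 0.00195) and IL7R higher (3.58 against 0.631 FPKM, 1.43, adjusted p = 0.00294). The sums of all 4 lists were thus lower under 2KR-MYB, as were 5 of the factors, and their part in the result was not tested. Each line was a K562 clone, so these sums are levels of marker transcripts in K562 cells and do not count cells of those types. In bulk RNA, fewer cells with a transcript and less of it per cell cannot be told apart.

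The genes nearest in pattern were sought for the 3 called factors with the largest change, as the smallest Euclidean distance between centred log2 values over the 6 libraries. SVIP, a small protein of endoplasmic reticulum degradation (28.4 against 45.8 FPKM, distance 0.0842), ECM1, an extracellular matrix protein (54.2 against 86.4 FPKM, 0.105), and TIMP1, a metalloproteinase inhibitor (215 against 328 FPKM, 0.109), lay nearest to KLF1. MLF1, first found in a myeloid leukemia fusion (13.6 against 19.1 FPKM, 0.0743), GDA, guanine deaminase (3.90 against 5.86 FPKM, 0.105), and CCDC68 (0.707 against 1.31 FPKM, 0.113) lay nearest to GFI1B. ELK4, an ETS factor (7.76 against 11.1 FPKM, 0.0393), ABCA7, a lipid transporter (12.3 against 17.1 FPKM, 0.0597), and FOXRED2 (15.0 against 21.5 FPKM, 0.0614) lay nearest to GATA1. None of these 9 genes was a factor of the set or on a pathway list.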

How the data were processed

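RNA was measured in 6 libraries, 3 of each rescue, grouped by their GEO titles. The authors deposited FPKM per gene from Cuffdiff 2.2.1; their processing notes also name bcl2fastq 2.18.0.12, Trimmomatic 0.36, TopHat2 2.1.1, Cufflinks and GRCh38. A further 12 value columns, which belong to none of these samples, were not used. The factors and lists were chosen with earlier results of these data known. Symbols were matched for 40954 of 58288 gene IDs. The test was limma 3.58.1 (R 4.3.3), fitted to log2(FPKM + 1) of every gene whose mean reached 1 FPKM (empirical Bayes with trend, Benjamini-Hochberg over all tested genes, threshold 0.01), after the code was tested on simulated data. There it recovered 44% of the genes changed by a log2 fold of 0.5 and 78% of those changed by 1. It made 0 calls with no gene changed. Ratios were tested by exact permutation with scipy 1.17.1 in Python 3.11.15. Low values showed no common step of 1 read (at most 3.80% of ratios in a 1% bin), so depth is unknown, and no counting interval is given. FPKM summed to 579920 to 601877 under 2KR-MYB and 583555 to 633662 under ANAA-MYB per library. RefSeq positions were found for 11537 of the tested genes. Promoters and positions are from RefSeq on GRCh38.p14. Named genes are the 10 factors, MYB, of each list up to 4 called genes with the smallest adjusted p and up to 4 more with the highest mean FPKM, and the nearest patterns; others are said to be chosen after their values were seen. Some genes that the rule takes are not reported here. Alternatives were the pseudocount, filter, scaling, variance prior, replicate block, threshold and each library left out.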

Additional observations from a re-analysis of the deposited data

How the results depend on the processing

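Of the settings tried on the 10 factors, no filter on low values left 3 called, a threshold of 0.05 gave 8, and leaving out 1 library gave 3 to 4. LMO2 ranged from -0.038 to 0.15 with a library left out, and was below 0 without 2KR-MYB replicate 1 (-0.038) and without ANAA-MYB replicate 1 (-0.0012). The same settings gave 942, 3402 and 852 to 1204 calls over all genes, against 1642. The replicate block gave 1089 calls over all genes and 4 of the factors, LDB1 being lost (adjusted p = 0.0157). Whether libraries with the same number were prepared together is not given in the sources used here. Their deviations from the means of the rescues correlated at -0.052, -0.035 and -0.0026, which shows no shared variation but cannot settle whether they are paired. Of the calls over all genes, 42.9% were higher under 2KR-MYB, against 56.6% with a common sum and 54.5% with upper quartile scaling. The count of complex partners called was 3 at a mean of 5 FPKM, 2 with upper quartile scaling, 2 with a robust prior, 7 at a threshold of 0.05 and 1 to 2 with a library left out. For small Maf and cap'n'collar factors it was 1 to 2 with a library left out, and for family relatives 6 at 0.05. For other regulators it was 1 with no filter, 2 with a common sum, 7 at 0.05 and 1 to 3 with a library left out. For target genes it was 5 with no filter and 20 at 0.05. With 5 neighbours a side the median was -0.27 for GATA1, -0.071 for GATA2, -0.13 for NFE2, -0.12 for GFI1B, 0.037 for LMO2, -0.011 for ZFPM1 and 0.11 for IKZF1. On the strand of the gene alone, 2 windows held the GATA motif and 4 the MYB motif. The cause of these changes was not tested. With 3 libraries a rescue and unknown depth, small differences such as that of ZFPM1 were not resolved. A factor that did not pass, such as GATA2, TAL1 or IKZF1, was not shown to be unchanged.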
